A study of Arabidopsis thaliana with 6 samples.

Results

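Nuclear genes whose symbols mark organelle RNA work were described in expanding rosette leaves of the sto2 null mutant of Arabidopsis thaliana and of wild type. A gene was included when its probe set paired with 1 gene, the gene lay on a nuclear chromosome and its symbol began with 1 of 17 prefixes followed by a digit: OTP, MEF, CRR, SLO, PTAC, SIG, RPF, PPR, MTERF, LPA, HCF, CRS, CAF, CFM, RH, ECB or VAC. This gave 26 genes of 13217 nuclear genes with such a probe set, and each of the 26 had 1 probe set. Leaves 3 to 6 came from 3-week-old plants grown in soil under 16 h light at 22 °C and 8 h dark at 18 °C, with no further treatment. The sto2 mutant and the Col-0 wild type were each represented by 3 samples, described in the design text as biological replicates, and each sample was hybridised to 1 single-colour Affymetrix array. The design text calls the mutant null. No label names the STO2 locus, and the labels could not be checked on the mutated gene.

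Chloroplasts and mitochondria keep small genomes of their own, but most proteins that process their transcripts are encoded in the nucleus and imported. Pentatricopeptide repeat (PPR) proteins bind single sites in organelle RNAs and direct C-to-U editing, intron splicing or the protection of transcript ends. CRM-domain proteins act in the splicing of chloroplast group II introns, and DEAD-box helicases remodel RNA structure. In green leaves this machinery serves the chloroplast genes for photosynthesis, for the NADH dehydrogenase-like (NDH) complex of cyclic electron flow and for the plastid's own RNA polymerase and ribosomes.

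By known function the symbols covered less, and in places other, ground than organelle RNA processing and transcription. RNA editing accounts for 11 of the genes, namely OTP80, OTP81, OTP84, OTP85, OTP86, OTP87, MEF8S, CRR21, CRR22, CRR28 and LPA66. Intron splicing accounts for 5, namely OTP43, OTP70, CAF1, CFM3A and CFM3B. PPR336 and PPR596 are mitochondrial PPR protein genes, and RH39 and RH20 are helicase genes. The remaining 6, HCF101, LPA1, LPA2, LPA19, CRR41 and CRR42, carry matching symbols but serve the assembly of photosystems or the NDH complex, not RNA. For 8 of the 17 prefixes (SLO, PTAC, SIG, RPF, MTERF, CRS, ECB and VAC) no gene met the rule, so no sigma factor and no PTAC gene of plastid transcription is described here.

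Array medians lay between 37 and 38.55 signal units. Leaf identity was checked with 6 measured mesophyll markers, all above the bacterial controls on every array, whose summed signal was 23970 to 24950 in sto2 and 23860 to 25740 in wild type. Of 2 root markers neither exceeded those controls on every array, and the shoot apex markers CLV3 and UFO exceeded them on none. In bulk leaf RNA, fewer cells of a type and less RNA per cell cannot be told apart. The 3′ over 5′ signal ratio of the older actin controls, a sign of RNA integrity, was 2.05 ± 0.25 in sto2 and 2.57 ± 0.058 in wild type on the log2 scale (SD, n = 3). The other 5 control ratios differed by -0.081 to 0.050. The part of RNA integrity in the results below was not tested.

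Most of the 26 transcripts were detectable in expanding leaves. Detection was judged on each array against the brightest of 27 bacterial control probe sets, which read 9.5 to 18.4 signal units; a higher reading counts as above the controls. By that measure 20 of the 26 genes (76.9%) were above the controls on all 6 arrays, against 62.2% of the 22746 probe sets tested. Another 5 were above them on some arrays, and OTP80 on none. All 6 that fell short were editing factor genes. Signals of different probe sets are not on a common scale, so the levels are not ranked between genes.

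**Figure D1:**
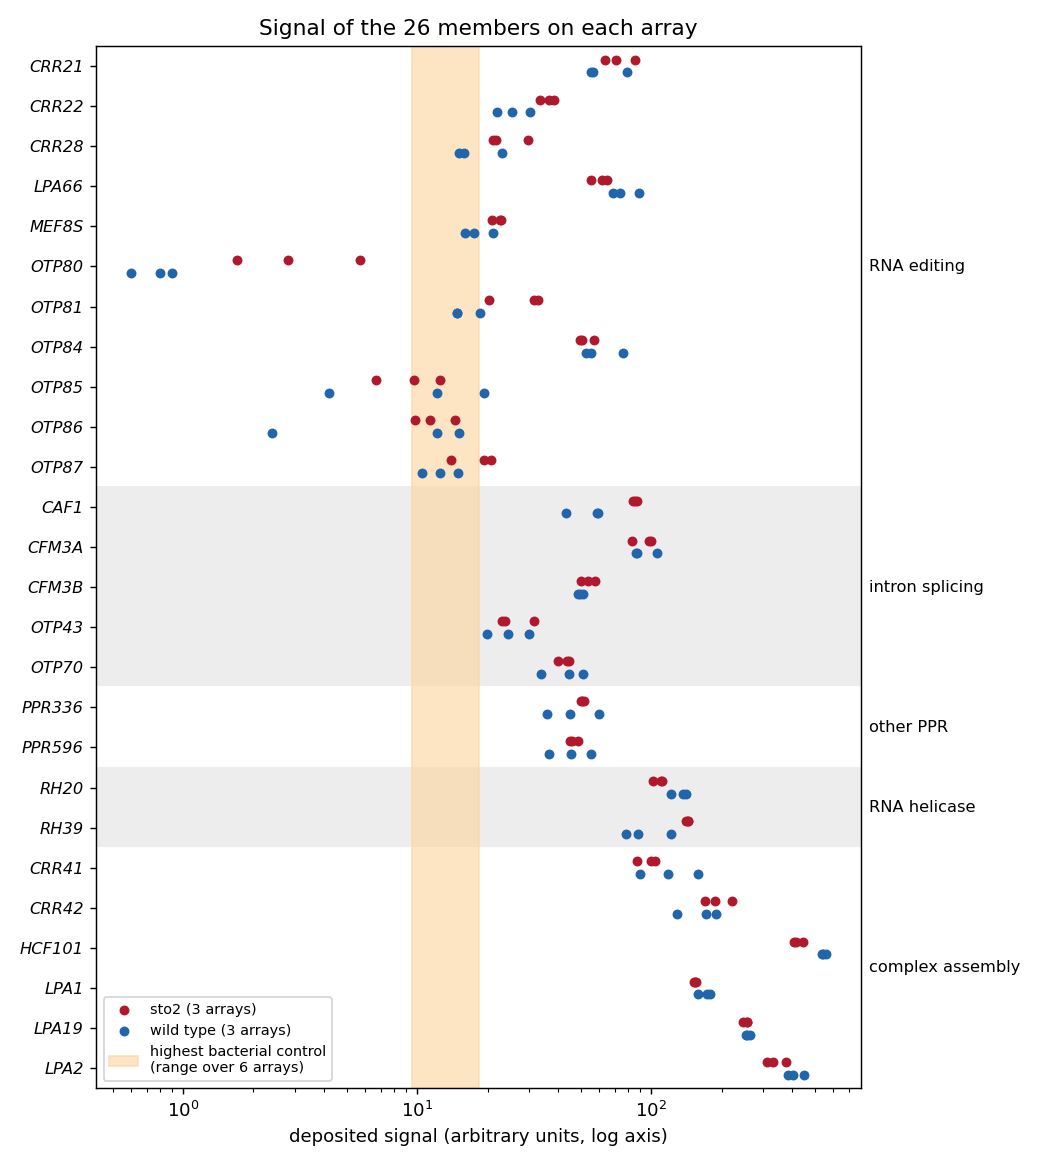
Deposited signal (log axis) of the 26 genes, 1 row per gene by function, with 3 sto2 arrays (red, upper in each row) and 3 wild-type arrays (blue, lower); the shaded band spans the highest bacterial control reading over the 6 arrays, 9.5 to 18.4. OTP80 lies below the band on every array, while splicing, helicase and assembly genes lie above it; rows are different probe sets, so only readings within a row can be compared.

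None of the 26 genes passed the test of sto2 against wild type (limma on log2(signal + 16), Benjamini-Hochberg adjusted p under 0.05 over all 22746 probe sets), a threshold that 0.127% of all probe sets passed. At an unadjusted p under 0.05 there were 8 of 26, 4 with higher and 4 with lower means in sto2, against 14.1% of all probe sets (6.65% higher and 7.46% lower). Among probe sets above the controls on every array it was 8 of 20 genes, against 17.7%. The groups did not overlap for 10 of 26 genes, 5 higher and 5 lower in sto2, against 19.2% of all probe sets (9.01% higher and 10.2% lower). Among probe sets above the controls throughout it was 9 of 20 genes, against 23.7%. These shares lay above the background, and no test of the list was made. The median log2 difference of the 26 was 0.066, beside -0.0081 over all probe sets, and single differences ran from -0.36 to 0.55.

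**Figure D2:**
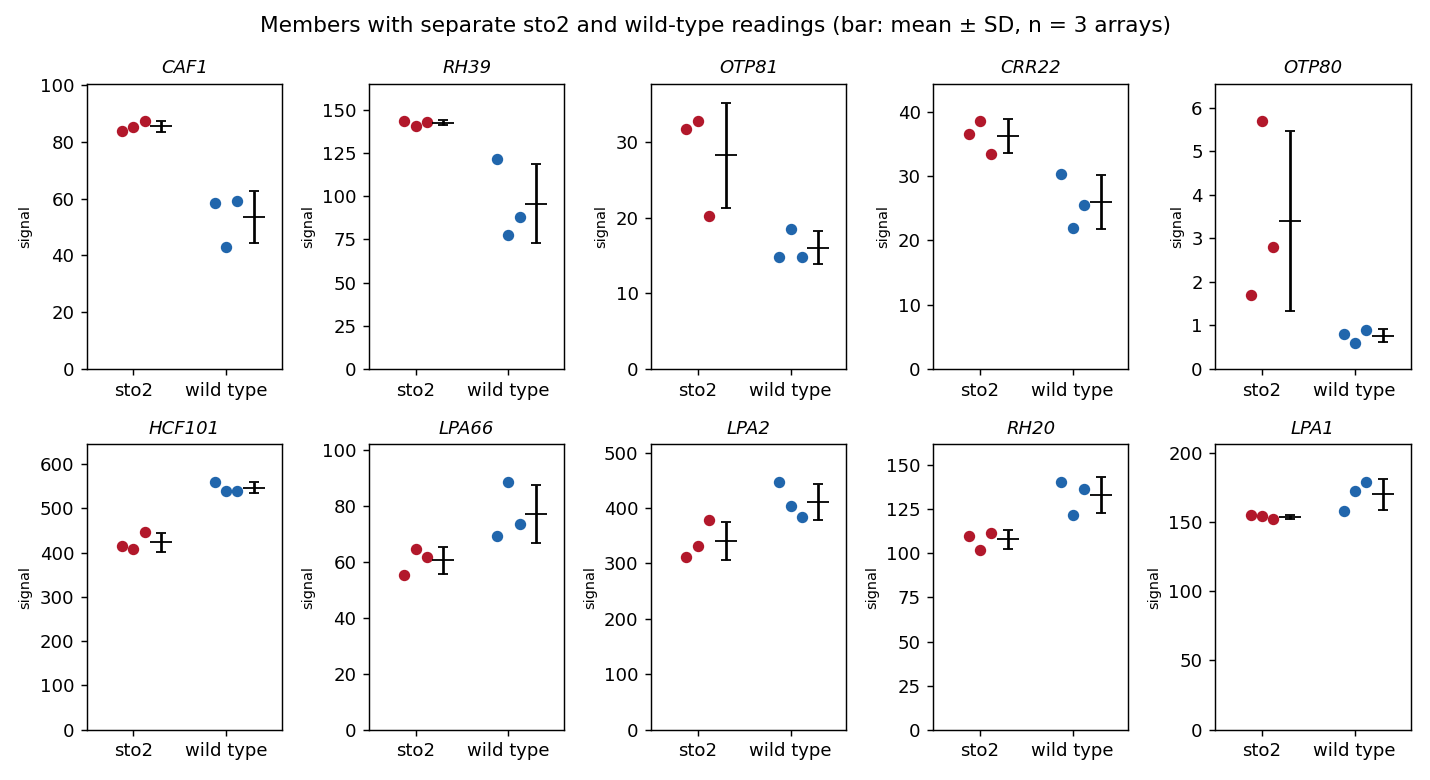
Signal (linear axis from 0) of the 10 genes whose sto2 (red, left) and wild-type (blue, right) readings did not overlap; points are arrays and bars are the mean ± SD of 3 arrays. CAF1, RH39, OTP81, CRR22 and OTP80 read higher in sto2 and HCF101, LPA66, LPA2, RH20 and LPA1 lower, and none of the 10 passed the adjusted test.

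The OTP genes are named for organelle transcript processing. Of the 8, 5 had higher and 3 lower means in sto2, the median log2 difference was 0.092, and 1 (12.5%) had an unadjusted p under 0.05, near the 14.1% of all probe sets. Their readings were low: 4 of 8 exceeded the bacterial controls on all 6 arrays.

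OTP81 (AT2G29760), an editing factor for several chloroplast sites including one in an rps12 intron, had 31.7, 32.8 and 20.2 signal units on the sto2 arrays, against 14.8, 18.5 and 14.8 on the wild-type arrays. All 3 sto2 readings lay above the highest wild-type reading, the nearest by less than 2 units. The log2 difference was 0.45 ± 0.13 (SE), a linear ratio of 1.76, with an unadjusted p of 0.011 and a limma adjusted p of 0.214. The wild-type readings sat just over the bacterial controls, at 18.5 against a limit of 18.4 on array 2.

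OTP87 (AT1G74600), which edits mitochondrial nad7 and atp1 transcripts, read 13.9, 19.4 and 20.7 in sto2, against 12.5, 15 and 10.5 in wild type. The ranges touched, since sto2 replicate 1 lay below wild type replicate 2, and the difference of 0.24 ± 0.11 did not pass (limma adjusted p = 0.373). It exceeded the controls on 2 sto2 arrays and 1 wild-type array.

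OTP84 (AT3G57430), which edits ndhB, ndhF and psbZ, read 49.6, 50.8 and 57.2 in sto2, against 52.8, 75.6 and 55.5 in wild type. The groups overlapped, and the lower sto2 mean came mostly from wild type replicate 2: the log2 difference was -0.16 ± 0.12 with all arrays and -0.035 without that array. OTP70 (AT4G25270), needed for splicing of the rpoC1 intron, read 43.9, 39.9 and 44.4 in sto2, against 51.3, 44.7 and 33.7 in wild type. Its difference was -0.0019 ± 0.12, with a 95% interval from -0.29 to 0.29. OTP43 (AT1G74900), needed to join the separately transcribed parts of mitochondrial nad1, read 31.5, 23.7 and 23.1 in sto2, against 19.8, 30.2 and 24.5 in wild type. Its readings also overlapped, and the difference was 0.046 ± 0.12.

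OTP85, OTP86 and OTP80 were near or under the limit of detection. OTP85 (AT2G02980), an ndhD editing factor, read 6.7, 12.5 and 9.7 in sto2, against 19.3, 4.2 and 12.2 in wild type, with 1 sto2 array and 2 wild-type arrays above the controls. OTP86 (AT3G63370), which edits rps14, read 14.5, 9.8 and 11.3 in sto2, against 2.4, 12.2 and 15.1 in wild type. Both genes overlapped between the groups, with log2 differences of -0.091 ± 0.20 for OTP85 and 0.14 ± 0.20 for OTP86. OTP80 (AT5G59200), which edits rpl23, read 1.7, 5.7 and 2.8 in sto2, against 0.8, 0.6 and 0.9 in wild type. The OTP80 groups were separate, but every reading was under the bacterial controls, so no fold is given.

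MEF8S was the only MEF gene that met the rule. MEF8S (AT4G32450), a relative of the mitochondrial editing factor MEF8, read 20.8, 22.7 and 22.9 in sto2, against 21.1, 16.1 and 17.5 in wild type. Wild type replicate 1 fell within the sto2 range, and the difference was 0.16 ± 0.082 (limma adjusted p = 0.447). With 1 gene, MEF factors cannot be set against OTP factors as a group.

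The other editing factor genes carry CRR and LPA symbols, for the chlororespiratory reduction and low photosystem II accumulation mutants. CRR22 (AT1G11290), which edits ndhB, ndhD and rpoB, read 36.6, 38.6 and 33.4 in sto2, against 30.4, 22 and 25.5 in wild type. The groups were separate by 3 signal units at the nearest readings, with a difference of 0.32 ± 0.096, an unadjusted p of 0.0136 and a limma adjusted p of 0.229. CRR28 (AT1G59720), for ndhB and ndhD, read 21.1, 21.8 and 29.8 in sto2, against 15.1, 15.9 and 23 in wild type. Wild type replicate 3 exceeded 2 of the 3 sto2 readings, and the difference of 0.24 ± 0.13 did not pass (limma adjusted p = 0.445). CRR21 (AT5G55740), for ndhD, read 85.1, 70.7 and 63.8 in sto2, against 55.1, 56.7 and 78.8 in wild type, again with overlap and a difference of 0.17 ± 0.14. With 1 array left out, the difference ran from 0.077 to 0.30 for CRR21, from 0.15 to 0.35 for CRR28 and from 0.25 to 0.39 for CRR22; the lowest values came without sto2 replicate 1, sto2 replicate 3 and wild type replicate 2, in that order.

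LPA66 (AT5G48910), which edits the photosystem II transcript psbF, had 55.3, 64.5 and 61.5 signal units in sto2, against 69, 88.6 and 73.6 in wild type. Its 3 sto2 readings all lay under the lowest wild-type reading. The log2 difference was -0.28 ± 0.10, with an unadjusted p of 0.0298 and a limma adjusted p of 0.297. Over the 11 editing factor genes, 8 had higher and 3 lower means in sto2, and the median log2 difference was 0.17; 47.8% of all probe sets had higher means. Of these 11, 3 had separate and higher readings in sto2, OTP80 below the controls among them, and 1 had separate and lower readings, beside 9.01% and 10.2% of all probe sets. Only 5 of the 11 were above the controls on every array. Of these, CRR21, CRR22 and OTP81 had higher means in sto2, and OTP84 and LPA66 lower means. Among probe sets so detected, 49.9% had higher means. OTP80, OTP86, OTP87, MEF8S and CRR28, the rest of those with higher means, were not above the controls on every array.

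**Figure D3:**
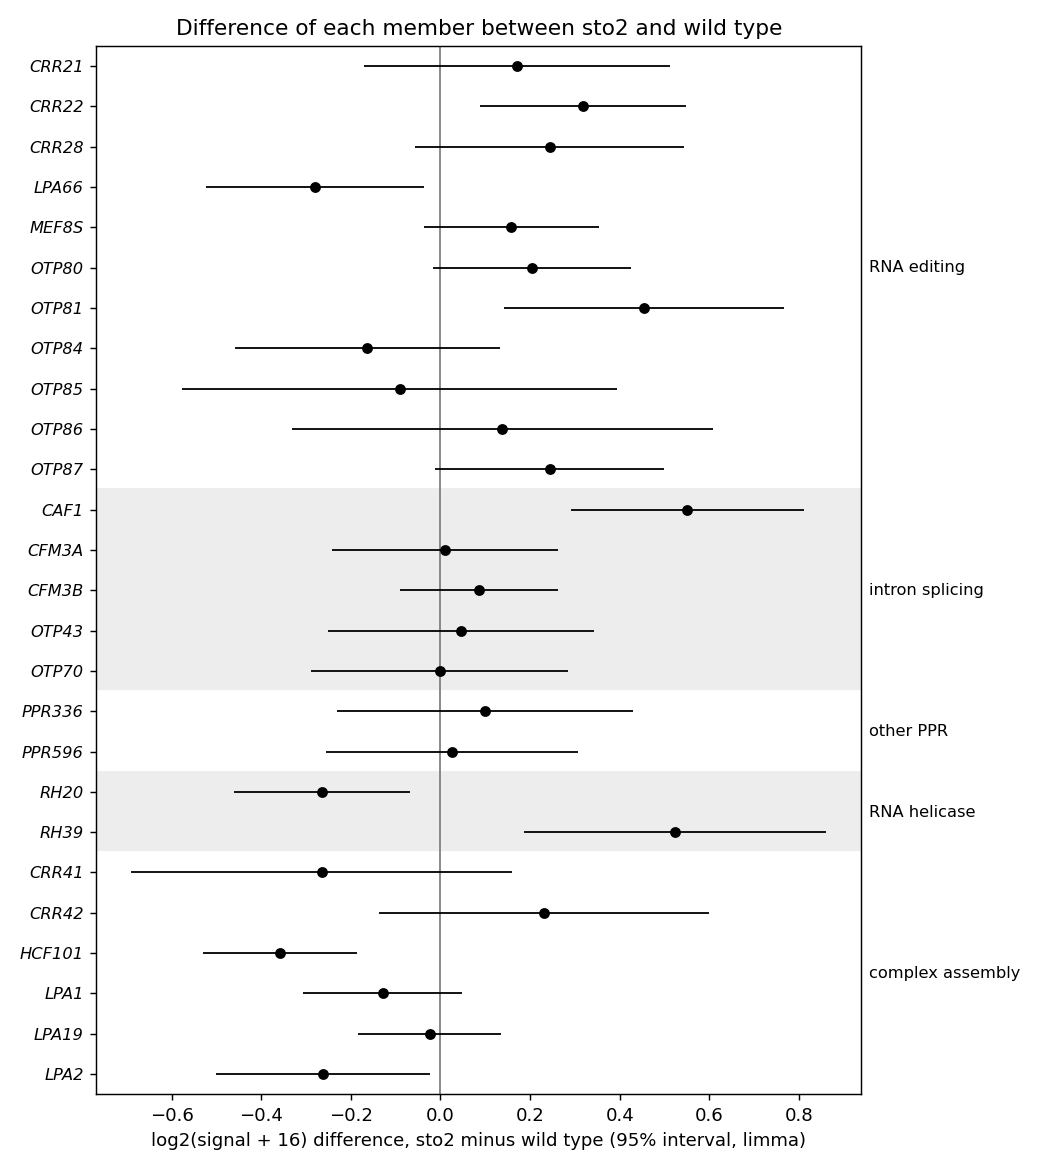
Log2(signal + 16) difference of each gene, sto2 minus wild type, with its 95% limma interval, by function. Intervals of 8 genes leave out 0: CRR22, OTP81, CAF1 and RH39 on the higher side in sto2 and LPA66, RH20, HCF101 and LPA2 on the lower side, before adjustment for the number of probe sets.

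Among splicing genes, CAF1 had the smallest p of the 26. CAF1 (AT2G20020), a CRM-domain protein that acts with the CRS2 protein in splicing chloroplast group II introns, had 83.8, 85.1 and 87.4 signal units in sto2, against 58.6, 43.1 and 59.3 in wild type. All 3 sto2 readings were close together and lay over every wild-type reading. The log2 difference was 0.55 ± 0.11 (95% interval 0.29 to 0.81), a linear ratio of 1.59, with an unadjusted p of 0.00166 and a limma adjusted p of 0.12. When the dimmest 50% of probe sets were left out, so that fewer were tested, CAF1 passed (limma adjusted p = 0.0474), the lowest of 15 alternatives, of which the highest gave 0.358.

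The related CRM-domain genes differed less. CFM3A (AT3G23070) read 99.6, 83.1 and 97.7 in sto2, against 86.8, 85.9 and 105.9 in wild type, and CFM3B (AT4G14510) read 53.9, 57.8 and 50.2 against 48.6, 49.8 and 51.1. Both act on chloroplast introns, and both overlapped between the groups. The differences were 0.0095 ± 0.11 for CFM3A and 0.087 ± 0.074 for CFM3B, with 95% intervals of -0.24 to 0.26 and -0.090 to 0.26. Whether CAF1 differed from CFM3A and CFM3B in its response was not tested.

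The 2 helicase genes had differences of opposite sign. RH39 (AT4G09730), a DEAD-box helicase of chloroplast 23S ribosomal RNA maturation, had 143.6, 140.9 and 143 signal units in sto2, against 121.4, 77.7 and 88.1 in wild type. The sto2 readings agreed within 3 units while the wild-type readings spread widely, with no overlap. The log2 difference was 0.52 ± 0.14, a linear ratio of 1.49, with a limma adjusted p of 0.195. RH20 (AT1G55150), a DEAD-box helicase to which no organelle role is assigned here, read 110.1, 101.8 and 111.7 in sto2, against 140.7, 121.6 and 136.7 in wild type. Its groups were separate in the other direction, with a difference of -0.27 ± 0.083 and a limma adjusted p of 0.24.

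The mitochondrial PPR genes were close between the groups. PPR336 (AT1G61870), whose protein is found with mitochondrial ribosomes, read 50.5, 51.5 and 50 in sto2, against 60.1, 35.9 and 44.9 in wild type. PPR596 (AT1G80270) read 45.7, 45 and 48.6 in sto2, against 45.4, 55.4 and 36.6 in wild type. In both, the wild-type readings surrounded those of sto2. The differences were 0.10 ± 0.14 for PPR336 and 0.025 ± 0.12 for PPR596, with 95% intervals of -0.23 to 0.43 and -0.26 to 0.31.

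Of the 6 assembly genes, 5 had lower means in sto2 and the median log2 difference was -0.20. HCF101 (AT3G24430), an iron-sulphur scaffold protein needed for photosystem I, had 414.5, 407.9 and 446.5 signal units in sto2, against 560.6, 538.7 and 540.1 in wild type. The groups lay far apart relative to their spread: means were 423 ± 20.6 in sto2 and 546 ± 12.3 in wild type (SD, n = 3), a linear change of -22.6%. The log2 difference was -0.36 ± 0.072 (95% interval -0.53 to -0.19), with an unadjusted p of 0.00177 and a limma adjusted p of 0.12. Leaving out each array in turn kept the difference between -0.40 and -0.33.

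LPA2 (AT5G51545), a photosystem II assembly factor, read 312.2, 331.4 and 378.6 in sto2, against 447.8, 402.9 and 384.1 in wild type. The groups were separate, narrowly so between sto2 replicate 3 and wild type replicate 3, with a difference of -0.26 ± 0.10 (limma adjusted p = 0.316). LPA1 (AT1G02910), a membrane protein of photosystem II assembly, read 154.9, 153.9 and 152.3 in sto2, against 157.8, 172.6 and 179.1 in wild type. The LPA1 groups were separate as well, by under 3 units at the nearest readings, and the difference was -0.13 ± 0.075 (limma adjusted p = 0.491). LPA19 (AT1G05385), a Psb27 homologue in the maturation of the D1 protein, read 245.8, 257.2 and 258 in sto2, against 255.8, 263.7 and 254.9 in wild type. Its difference was -0.024 ± 0.067, with a 95% interval from -0.18 to 0.14.

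The 2 NDH assembly genes varied widely between replicates. CRR41 (AT1G51100) read 103.6, 99.9 and 87.2 in sto2, against 90, 118.5 and 158.3 in wild type. CRR42 (AT5G20935) read 222, 169.4 and 187.9 in sto2, against 128.8, 171.1 and 189.4 in wild type. Both overlapped between the groups, with differences of -0.27 ± 0.18 for CRR41 and 0.23 ± 0.16 for CRR42. For CRR41 the wild-type spread decided the size: leaving out wild type replicate 1 gave -0.44, and leaving out wild type replicate 3 gave -0.084. For CRR42 the difference was 0.085 when wild type replicate 1 was dropped and 0.13 when sto2 replicate 1 was.

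By symbol family the HCF and LPA genes, with LPA66 among them, all had lower means in sto2, 5 of 5, with a median of -0.26. Of these 5, 4 had separate groups in that direction, against 10.2% of all probe sets. All 5 were above the controls on every array, and of probe sets so detected 1713 of 14157 were separate and lower. Of the 6 mesophyll markers, 4 had lower means in sto2, beside 11871 of all 22746 probe sets. PRK and LHCB4.1 had higher means, with log2 differences of 0.13 and 0.062. LHCB4.2, a light-harvesting protein gene, was the only mesophyll marker with separate groups. It read 4282.7, 4010.2 and 4165.6 in sto2, against 4675.2, 4412.7 and 4388.2 in wild type. Marker differences ran from -0.13 to 0.13 on the log2 scale, and their part in the HCF and LPA values was not tested. The 5 CRR genes had a median of 0.23, or 0.097 when wild type replicate 1 was left out and 0.13 when sto2 replicate 1 was. The 3 CAF and CFM genes had 0.087. For the 2 PPR genes the value was 0.063, and it came to 0.14 when wild type replicate 1 was left out and to -6.1e-05 when wild type replicate 3 was. For the 2 RH genes it was 0.13, midway between 0.52 and -0.27, with 0.23 and 0.042 when wild type replicates 1 and 2 were left out in turn. The highest reading of a gene fell on a sto2 array for 12 genes, 4 on each array, and on wild type replicates 1, 2 and 3 for 6, 4 and 4. The lowest reading fell on sto2 replicates 1, 2 and 3 for 4, 3 and 2 genes and on wild type replicates 1, 2 and 3 for 7, 7 and 3.

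Several of these factors act on chloroplast transcripts that the array also measured. The array reads how much of a transcript is bound, not whether it is edited or spliced. Of 19 listed edited plastid transcripts 16 had a named probe set, and 0 of them passed the adjusted test, while 1 of 16 (6.25%) had an unadjusted p under 0.05, below the 14.1% of all probe sets. Their median log2 difference was 0.076. For 12 listed plastid genes with introns 9 were measured, with a median of -0.036 and 0 past the adjusted or the unadjusted threshold. The 4 subunit genes of the plastid RNA polymerase, rpoA, rpoB, rpoC1 and rpoC2, had a median of 0.063 and none passed. The signs of these 3 medians rested on single arrays. With 1 array left out they ran from -0.099 to 0.26 for edited transcripts, from -0.17 to 0.091 for those with introns and from -0.18 to 0.29 for the polymerase genes, lowest without wild type replicate 2 and highest without wild type replicate 3 in each case.

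For LPA66 and CRR22, editing factor genes with separate groups, the transcripts set beside them overlapped between the groups. No plastid transcript was set beside OTP81 or OTP80, editing factor genes whose groups were also separate. The pairs are not a full list of targets, so measured transcripts may include some with OTP81 sites. The psbF transcript, edited through LPA66, read 1615.3, 1778.9 and 1995.7 in sto2, against 1853.3, 1876.5 and 2006 in wild type. Its difference of -0.093 ± 0.097 did not pass (limma adjusted p = 0.73). The ndhD transcript, edited through CRR21, CRR22, CRR28 and OTP85, read 323, 282.7 and 341.6 in sto2, against 292, 286.5 and 387.7 in wild type, a difference of -0.018 ± 0.14.

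Wild type replicate 2 stood low for several plastid transcripts. The rpoB transcript, another that CRR22 serves, read 71.5, 41 and 74.1 in sto2, against 64.2, 11.1 and 78.9 in wild type, and its difference of 0.37 ± 0.47 turned to -0.19 without wild type replicate 2. The ndhF transcript, edited through OTP84, read 162.1, 157.7 and 216 in sto2, against 104.9, 64.3 and 215.9 in wild type, with a difference of 0.56 ± 0.36, which was 0.20 without wild type replicate 2; leaving out wild type replicate 3 gave 0.97. For psbZ, also served by OTP84, and rps14, served by OTP86, the differences were -0.013 ± 0.12 and 0.29 ± 0.26. That of rps14 was 0.027 without wild type replicate 2, 0.56 when wild type replicate 3 was left out instead. The rpoC1 transcript, spliced with OTP70, read 206.3, 202.4 and 223.7 in sto2, against 190, 146.3 and 301.7 in wild type, a difference of 0.044 ± 0.23.

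**Figure D4:**
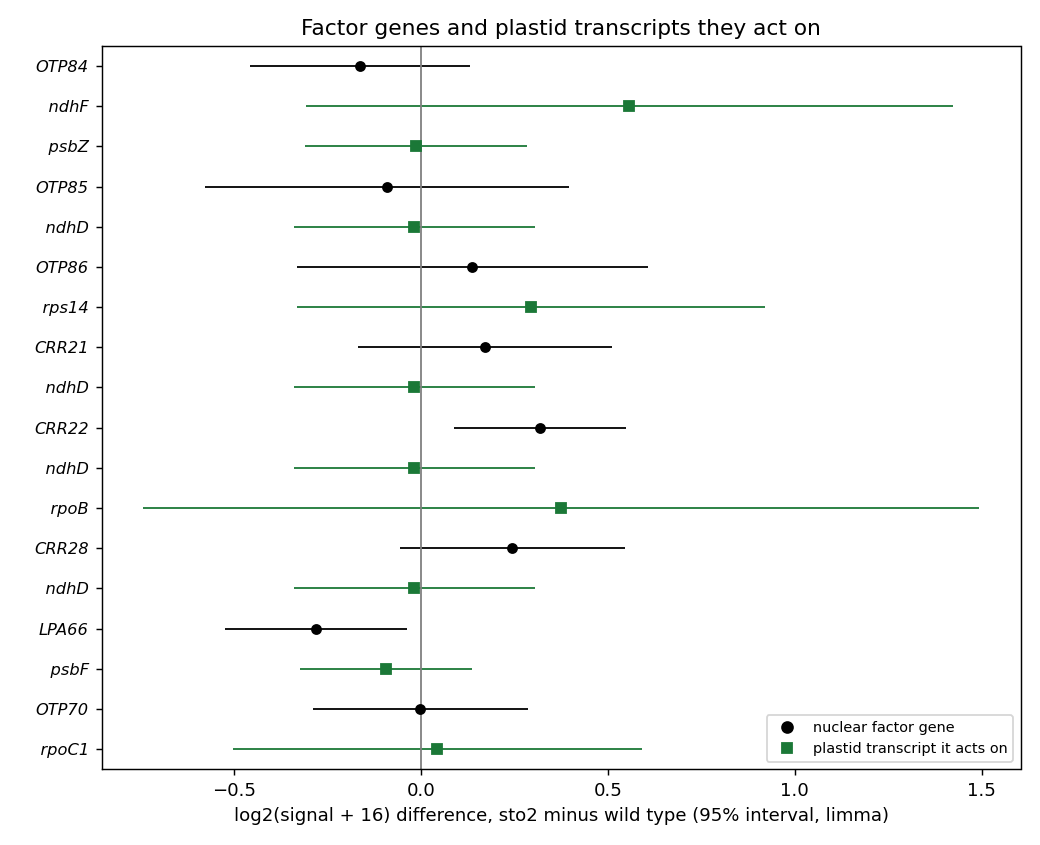
Log2(signal + 16) difference, sto2 minus wild type, with 95% limma intervals, for factor genes (black circles) and plastid transcripts set below each (green squares). Each factor acts on the transcripts below it, and ndhD recurs because 4 factors serve it. Every plastid interval spans 0, and those of ndhF and rpoB are the widest.

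The one edited transcript with separate groups was psbE, a photosystem II gene. It read 1484.9, 1344.9 and 1512 in sto2, against 1735.7, 1644.5 and 1666.4 in wild type. The difference was -0.22 ± 0.078, with an unadjusted p of 0.028 and a limma adjusted p of 0.291. None of the 26 genes is known as its editing factor.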

How the data were processed

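Probe set signals of 6 single-colour Affymetrix arrays were used as the authors deposited them: linear signal intensity, per the labels' protocols labelled and scanned by a service provider. How probes were summarised was not stated in the labels used here. Every array had a 2% trimmed mean of 100.009 with unequal quartiles, so 1 scaling factor per array was taken to have been applied, and none was added.

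The 64 control probe sets of 22810 were dropped. The other 22746 went onto the log2(signal + 16) scale and into 1 linear model with moderated variances, 2-sided (limma 3.58.1, run in R 4.3.3). Benjamini-Hochberg adjustment ran over all of them, at a threshold of 0.05. Differences on that scale understate changes of dim transcripts. The number of arrays limits precision.

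The gene table gave 13513 probe sets with 1 gene, 503 with several, and left 8730 unlisted; loci came from RefSeq TAIR10.1. A separate plan for which of the 26 to name took every OTP and MEF gene and, in other families, those of smallest p or largest separate difference; all 26 are described. Members, lists and tests were chosen with earlier results of these data known; the grouping by function, the factor and transcript pairs and the control-based detection limit were chosen after values were seen. Lists of 42 other editing genes, 46 splicing and turnover genes and 26 transcription genes matched 0 named probe sets outside the 26 genes. Protein sequences were not analysed here.

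Alternatives were median centring, quantile normalization, filters that dropped the dimmest 30% or 50%, pseudocounts of 1 and 64, an intensity trend with a robust prior, a replicate block, averaged probe sets per gene, and leaving out each array.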

Additional observations from a re-analysis of the deposited data

How the results depend on the processing

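No gene of the 26 passed in any of 15 alternatives except CAF1 with the dimmest 50% of probe sets left out, where 1 gene passed. Of the 26, 19 kept the sign of their difference in every alternative that measured them and 7 did not. Calls over all probe sets, 29 as reported, were 147 and 227 without the dimmest 30% and 50%, 17 and 83 with pseudocounts of 1 and 64, 72 with an intensity trend and robust prior, and 5 to 22 with 1 array left out. Deviations of same-numbered samples correlated at -0.23, -0.14 and 0.073, and those of different-numbered samples at -0.18 to 0.27. A fit with the replicate block called 2. That fit leaves less data to estimate the spread, so its count cannot decide whether samples were paired.

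The median over the 26 genes was 0.081 after quantile normalization, 0.046 and -0.0019 without the dimmest 30% and 50%, 0.093 and 0.031 with pseudocounts of 1 and 64, and 0.052 to 0.102 with 1 array left out. The OTP median was -0.083 without the dimmest 50%, which keeps OTP84 and OTP70 only, 0.27 and 0.031 with pseudocounts of 1 and 64, and 0.032 to 0.17 with 1 array left out. The MEF8S value was 0.27 and 0.067 with those pseudocounts. The HCF and LPA median was -0.18 with a pseudocount of 64 and -0.30 to -0.19 with 1 array left out.

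OTP70, near 0, turned to 8.17e-05 after quantile normalization, 0.0044 after median centring and 0.0025 with a pseudocount of 1. With 1 array left out, differences that changed sign ran from -0.12 to 0.096 for OTP70, -0.036 to 0.094 for CFM3A, -0.045 to 0.14 for OTP43, -0.31 to 0.097 for OTP85, -0.091 to 0.29 for OTP86, -0.030 to 0.25 for PPR336 and -0.085 to 0.14 for PPR596. Among plastid transcripts they ran from -0.27 to 0.19 for rpoA, -0.19 to 0.72 for rpoB, -0.17 to 0.31 for rpoC1, -0.12 to 0.27 for rpoC2, -0.085 to 0.20 for accD, -0.18 to 0.25 for atpF, -0.092 to 0.12 for ndhD, -0.18 to 0.40 for petL, -0.12 to 0.084 for psbZ, -0.12 to 0.041 for ndhA, -0.24 to 0.091 for rpl16 and -0.28 to 0.091 for rps16. The cause of these shifts was not tested.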
